A study of Macaca mulatta with 4 samples.

Results

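The genes described here encode known proteins of the actin cortex and the wider cytoskeleton. Where in the embryo these proteins lie was not measured. The set holds the plastin genes LCP1, PLS1 and PLS3 and the villin gene VIL1, which encode proteins that bundle actin filaments. It also holds the ERM genes EZR, MSN and RDX (ezrin, moesin, radixin). The non-muscle myosin II heavy chains MYH9 and MYH10 and the intermediate filament gene VIM complete the set. LCP1 was selected on its high level in the GG libraries of these same data, and the other 9 genes were chosen by their known function. That choice was made with earlier results of these data known, so the p-values below may not be free of selection. Of the 10 genes, 9 matched one row each among the 21314 genes of the table. PLS1 was not analysed here. All 9 passed the filter on low counts, and p-values are given for 8, since a test of LCP1 would reuse the values that selected it.

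The samples were morulae of the rhesus macaque (Macaca mulatta), 2 libraries labelled AG and 2 labelled GG by genotype. The design text of the series names androgenetic embryos, whose nuclear genome is paternal, and gynogenetic embryos, whose nuclear genome is maternal. Every embryo compared here is therefore uniparental, and no biparental embryo was analysed here. The labels give no treatment and no embryo age beyond the morula stage, and they leave the number of embryos per tube unclear. Separate parents are not stated either, and the p-values below therefore rest on a spread between samples that may be technical in part. Library totals were 14129608 and 19108735 estimated reads in AG and 21335918 and 29733977 in GG. Levels are in CPM, read counts scaled to a common library total, and are compared between libraries for 1 gene at a time, because transcript lengths were not used here. These are bulk samples, in which fewer cells of a kind and less RNA per cell cannot be told apart.

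At compaction, outer blastomeres acquire an apical domain rich in filamentous actin and microvilli. Ezrin, moesin and radixin link such filaments to the plasma membrane once a threonine near their C terminus is phosphorylated, and ezrin is a standard marker of the apical pole of mammalian blastomeres. Plastins, also called fimbrins, pack parallel filaments into bundles, and myosin II contracts the cortex. Plastin 2, the product of LCP1, is best known from leukocytes, plastin 3 from many solid tissues, and villin from the intestinal brush border.

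EZR rose and RDX fell in GG relative to AG morulae, while LCP1 stood about 112-fold higher in GG. With edgeR's quasi-likelihood test and an adjusted p under 0.05, 1 of the 8 tested genes was higher in GG, against a background of 6.34% of all 13227 genes tested. In the other direction, 1 of the 8 was higher in AG, against 6.58%. The remaining 6, PLS3, VIL1, MSN, MYH9, MYH10 and VIM, were not called, so that 2 of 8 were called against 12.9% of all genes. The GG libraries lay entirely on one side of the AG libraries for 6 of the 8, a separation also seen in 64.1% of all genes tested. The median log2 fold change of the 8 was -0.22, beside 0.04 for all genes tested. Leaving out GG replicate 1 or GG replicate 2 cut the calls over all genes from 1709 to 119 and 84. EZR and RDX then lost their calls, and of the called genes in the lists below CAPG and ZSCAN4 kept theirs in both settings, ACTN2 kept its call without GG replicate 2, and every other gene lost it.

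**Figure D1:**
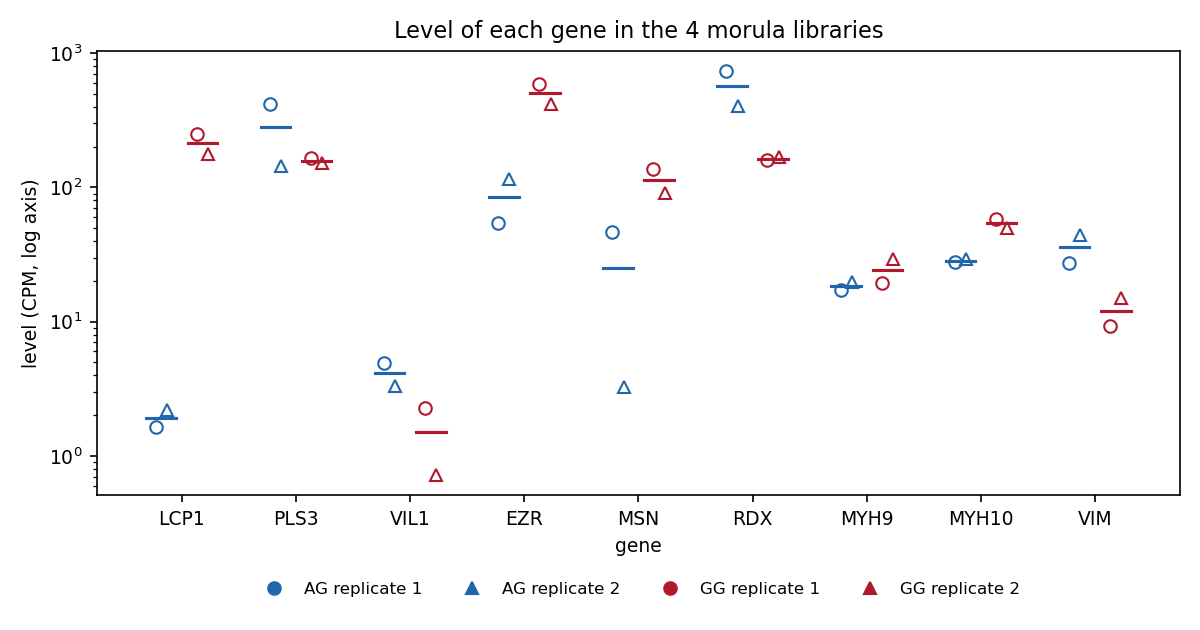
Level in CPM (log axis) of the 9 measured genes in each library, with AG in blue, GG in red, circles for replicate 1, triangles for replicate 2 and a bar at each group mean. LCP1 lies at 1.64 and 2.18 CPM in AG and at 250.3 and 177 CPM in GG, EZR is higher and RDX lower in GG, and the AG symbols of MSN lie 14.4-fold apart.

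LCP1 (ENSMMUG00000017033), on chromosome 17, was nearly silent in AG and well expressed in GG. It had 1.64 and 2.18 CPM in AG replicates 1 and 2, against 250.3 and 177 CPM in GG replicates 1 and 2. Both GG libraries were far above both AG libraries, with means of 1.91 ± 0.386 CPM in AG and 213 ± 52.1 CPM in the GG libraries (SD, n = 2). The reads behind these levels were 23 and 43 in AG and 5271 and 5180 in GG. Its fitted log2 fold change was 6.79, and 141 of the tested genes had a higher one. Because the level in GG selected the gene, this difference is a description without a test.

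PLS3 (ENSMMUG00000006377), the plastin of solid tissues, is X-linked and was expressed in all 4 libraries. It stood at 419.5 and 144 CPM in AG replicates 1 and 2 and at 165 and 152 CPM in the GG libraries. AG replicate 1 was high and the GG libraries fell between the AG libraries, so the groups overlapped. The log2 fold change was -0.83 ± 0.50 SE, with a 95% interval of -2.08 to 0.42 (adjusted p = 0.313); intervals of single genes are not adjusted for the number of genes. The value rested on which AG library was used. Without AG replicate 2 it was -1.43, and without AG replicate 1 it was 0.13.

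Within a library, the ratio of reads of LCP1 to those of PLS3 needs no scaling, and its change between libraries does not depend on gene length. In AG replicates 1 and 2 the ratio was 0.00391 and 0.0152, and in the GG libraries it was 1.52 and 1.16. On average it was 173-fold higher in GG, and since LCP1 was picked on these values the change has no test. In AG nearly all reads of this pair of plastins came from PLS3, whereas in GG reads of LCP1 were slightly more numerous.

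LCP1 is used as a leukocyte gene, so leukocyte markers are given beside it. All 16 on the list had a row and 7 passed the filter, of which 1 was called in each direction. The share called was 28.6%, against 12.9% of all genes tested. PTPRC, the pan-leukocyte phosphatase CD45, fell in GG (141 and 65.9 CPM in AG, 6.46 and 3.44 CPM in the GG libraries, log2 fold change -4.39 ± 0.57 SE, adjusted p = 0.0168). CD53, a leukocyte tetraspanin, rose from 4.06 and 13.3 CPM in AG to 349.9 and 229 CPM in the GG libraries (5.05 ± 0.66, adjusted p = 0.0168). CYBB had 0 reads in every library, where 3 reads would be 0.102 to 0.214 CPM. CD3E had 1 read in all, and ITGB2 and CD74 had 3 each over the 4 libraries (named after their values were seen). The summed level of the list was 162.8 and 81.3 CPM in AG and 364 and 248 CPM in the GG libraries. Most of it was PTPRC in AG and CD53 in GG. Of the 7 tested, 4 had a positive log2 fold change, with a median of 1.55. Also named after their values were seen, the myeloid factor gene SPI1 had 3 reads in AG and 32 in GG (not called, adjusted p = 0.241), and TYROBP had 34 and 3 and did not pass the filter. Leaving out AG replicate 1 put PTPRC at -3.75 and CD53 at 4.44, and without AG replicate 2 CD53 was at 6.13. The part of leukocyte RNA in the level of LCP1 was not tested.

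VIL1 (ENSMMUG00000016899), the villin gene, was scarce in all libraries. It had 4.92 and 3.30 CPM in AG and 2.28 and 0.716 CPM in the GG libraries, from 69, 65, 48 and 21 reads. Both GG libraries were below both AG libraries, but the fitted change of -1.46 ± 0.77 SE was not called (95% interval -3.38 to 0.46, adjusted p = 0.256). Without GG replicate 1 it was -2.50, and without GG replicate 2 it was -0.88. AVIL, which encodes the related protein advillin and was named after its values were seen, rose in GG, from 0.214 and 0.914 CPM in AG to 39.7 and 9.55 CPM (log2 fold change 5.38 ± 1.03 SE, adjusted p = 0.0328). With 1 library left out, its log2 fold change ran from 4.04 without GG replicate 1 to 6.77 without AG replicate 2.

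Other actin bundlers and crosslinkers formed a list of 24, of which 16 were tested. In GG, 4 were called higher, 1 was called lower and 11 were not called, with a median log2 fold change of 0.21. The share called was 31.2%, against 12.9% of all genes tested. Besides AVIL, the increases included TAGLN2, a calponin-family actin binder, and FLNA, a filamin that crosslinks filaments into networks. TAGLN2 rose from 58.1 and 87.1 CPM in AG to 388 and 379.95 CPM in the GG libraries (log2 fold change 2.40 ± 0.30 SE, adjusted p = 0.0148). FLNA rose from 6.06 and 8.38 CPM to 43.4 and 43.1 CPM (2.58 ± 0.36, adjusted p = 0.0188). ACTN2, known as the sarcomeric alpha-actinin, went the other way, from 77.4 and 35.3 CPM in AG to 0.142 and 0.307 CPM in the GG libraries (-7.89 ± 0.70, adjusted p = 0.00792), with -7.22 without AG replicate 1 and -8.59 without GG replicate 2. FSCN1, the fascin gene (named after its values were seen), stood at 9.55 and 3.30 CPM in AG and 3.85 and 1.60 CPM in the GG libraries and was not called.

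Genes of actin itself and of filament turnover included several that rose in GG and none that fell by edgeR. Of 32 tested on a list of 38, 28 had a positive log2 fold change, 7 were called higher in GG, 0 were called higher in AG and 25 were not called (edgeR). The share called by edgeR was 21.9%, against 12.9% of all genes tested. At an unadjusted p under 0.05, 18 were higher in GG and 0 in AG, and DESeq2 called 13 and 0. Over all genes, DESeq2 called 1628 higher in GG and 1711 higher in AG of 18261 genes with a p-value. DESeq2 can leave genes with low counts without an adjusted p, so fewer genes may have been open to a call. The share of all genes at the unadjusted threshold is not given, here or for the lists below. In the edgeR fit an unadjusted p of 0.0492 (LIN7C, of the polarity list) went with an adjusted p of 0.154. That threshold is therefore far more permissive than a call, and its counts are not read as results about a list. The list median was 0.72, and across all genes 6760 of 13227 fold changes were positive. CAPG, which caps filament ends and belongs to the villin and gelsolin family, rose from 2.99 and 4.88 CPM in AG to 97.4 and 128 CPM in the GG libraries (log2 fold change 4.83 ± 0.42 SE, adjusted p = 0.00757). ACTB, cytoplasmic beta-actin, rose from 911 and 1181 CPM to 3000.4 and 4276 CPM (1.80 ± 0.28, adjusted p = 0.0217). ACTG1, cytoplasmic gamma-actin and named after its values were seen, stood at 1527 and 1604 CPM in AG and at lower levels of 878 and 1406 CPM in the GG libraries, and was not called (-0.46 ± 0.28, adjusted p = 0.320). The Arp2/3 subunit gene ACTR3 rose by 1.99 ± 0.30 and WASF2, an activator of that complex, by 2.61 ± 0.42 on the log2 scale. Also called were ARPC2, CAPZA2 and TPM4, named after their values were seen. TPM4, at 4.11, was at 3.34 without AG replicate 1 and 5.91 without AG replicate 2.

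EZR (ENSMMUG00000019457), on chromosome 4, rose in GG. It stood at 54.5 and 115 CPM in AG replicates 1 and 2 and at 594 and 419.8 CPM in GG replicates 1 and 2. Both GG libraries lay above both AG libraries, and the group means were 84.6 ± 42.6 CPM and 507 ± 123 CPM (SD, n = 2), a 5.99-fold difference. The log2 fold change was 2.58 ± 0.43 SE (95% interval 1.51 to 3.65, edgeR adjusted p = 0.0261), and 6.44% of tested genes had a higher one. The call was lost without GG replicate 1 or GG replicate 2 (adjusted p = 0.138 and 0.104). Without AG replicate 2 the log2 fold change was 3.19, and without AG replicate 1 it was 2.135.

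RDX (ENSMMUG00000002241), on chromosome 14, moved in the opposite direction. It stood at 737 and 405 CPM in AG and at 159 and 168 CPM in the GG libraries. Both AG libraries were higher than either GG library, with means of 571 ± 235 CPM and 164 ± 6.29 CPM (SD, n = 2), a 3.49-fold difference. The log2 fold change was -1.80 ± 0.34 SE (95% interval -2.65 to -0.95, edgeR adjusted p = 0.0321). This call was also lost without GG replicate 1 or GG replicate 2 (adjusted p = 0.198 and 0.197).

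MSN (ENSMMUG00000015653), the X-linked moesin gene, differed widely between the AG libraries. It stood at 46.7 CPM in AG replicate 1 and 3.25 CPM in AG replicate 2, against 137 and 90.1 CPM in the GG libraries. Both GG libraries were higher than either AG library, yet the change was not called, at a log2 fold change of 2.19 ± 1.10 SE (95% interval -0.53 to 4.91, adjusted p = 0.232). The 14.4-fold difference between the AG libraries was exceeded, on the scale of log2(CPM + 0.5), by 0.446% of all tested genes. With either AG library alone the log2 fold change was positive, at 5.11 without AG replicate 1 and 1.25 without AG replicate 2. In such fits only the GG pair gives a spread, so the difference between the AG libraries does not enter the error.

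**Figure D2:**
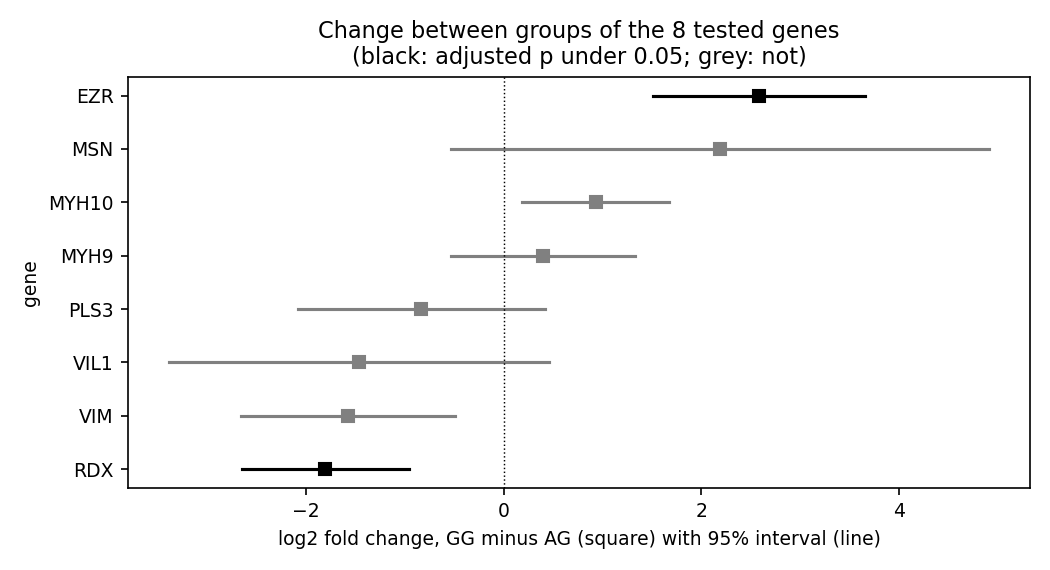
Log2 fold change (GG minus AG, squares) with its 95% interval (lines) for the 8 tested genes, black where the adjusted p was under 0.05 and grey otherwise. EZR at 2.58 and RDX at -1.80 are black, and MSN, at 2.19, has the widest interval of the 8, from -0.53 to 4.91.

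**Figure D3:**
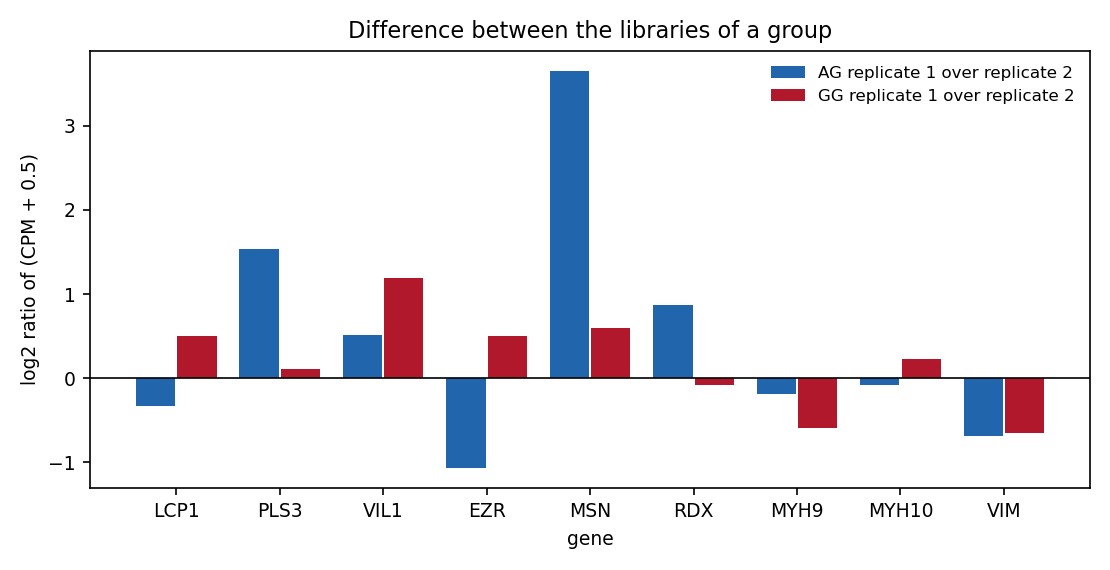
Log2 ratio of replicate 1 over replicate 2, from CPM + 0.5, within AG (blue bars) and within GG (red bars) for each of the 9 genes. The AG bars of MSN (3.65) and PLS3 (1.54) stand out upward, and the GG bars of the same genes are 0.60 and 0.11.

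MSN and PLS3 are the 2 X-linked genes of the set, and both were higher in AG replicate 1 than in AG replicate 2, by 3.65 and 1.54 on the log2(CPM + 0.5) scale. Other X-linked genes leaned the same way, a comparison added after the values were seen. Over 390 tested X-linked genes, the median log2 ratio of AG replicate 1 to replicate 2 was 0.50, and 70.3% were higher in replicate 1. Over 10147 autosomal genes the median was -0.09 and the share 44.8%. Between the GG libraries the medians were -0.001 and -0.01. The part of this in the values of MSN and PLS3 was not tested. RDX was also higher in AG replicate 1, by 0.86, while EZR was lower there, by 1.07, and neither is X-linked.

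Ratios of reads within a library compare the ERM paralogs without scaling. The ratio of EZR to RDX was 0.0739 and 0.283 in the AG libraries (replicates 1 and 2) against 3.73 and 2.50 in GG, on average 21.1-fold higher in GG. That of MSN to RDX was 0.0634 and 0.00803 in AG and 0.858 and 0.536 in GG. For EZR to MSN the AG libraries, at 1.17 and 35.3, enclosed the GG libraries, at 4.34 and 4.66. The first 2 ratios did not overlap between groups and the last did. The ratios are given as descriptions, and an exact permutation test on groups of 2 could give no two-sided p below 0.333.

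**Figure D4:**
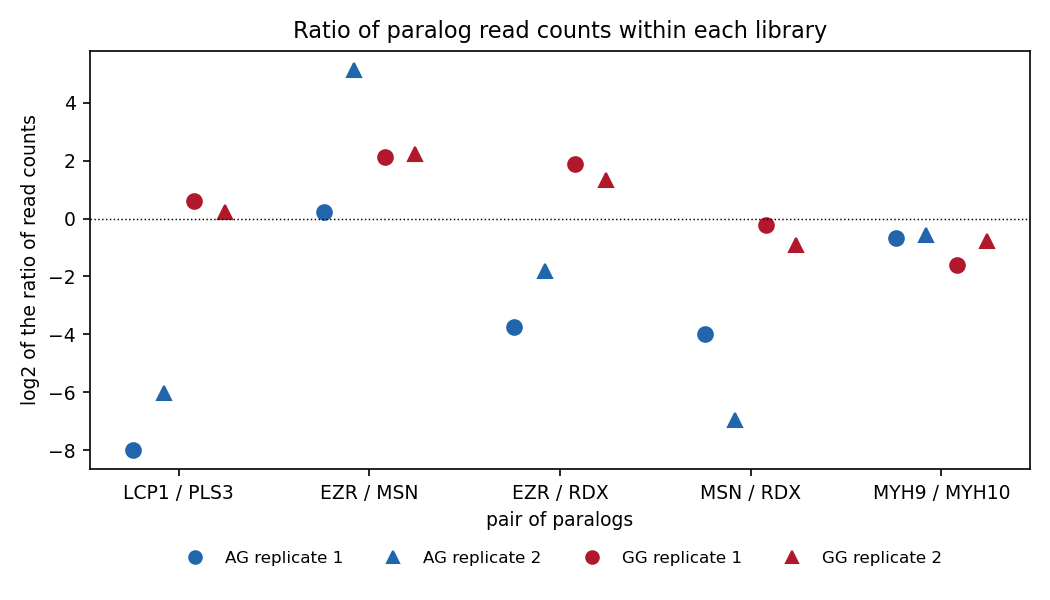
Log2 ratio of read counts of 2 paralogs within each library, with AG in blue, GG in red, circles for replicate 1 and triangles for replicate 2. The ratios of LCP1 to PLS3, EZR to RDX and MSN to RDX are higher in both GG libraries than in either AG library, EZR to MSN overlaps, and MYH9 to MYH10 is slightly lower in GG.

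Among partners, kinases and relatives of the ERM proteins, ROCK2 fell in GG and none rose by edgeR. Of 20 tested on a list of 26, 0 were called higher in GG, 1 was called higher in AG and 19 were not called, and 9 had a positive log2 fold change, with a median of -0.50. The share called by edgeR was 5%, below the 12.9% of all genes tested. At an unadjusted p under 0.05, 3 were higher in GG and 7 in AG, and DESeq2 called 3 and 5. The called gene was ROCK2, a kinase that activates myosin II and can phosphorylate ERM proteins, which stood at 133 and 153 CPM in AG and 56.9 and 62.9 CPM in the GG libraries (log2 fold change -1.25 ± 0.26 SE, adjusted p = 0.0390). The following genes were named after their values were seen. NHERF1, the PDZ scaffold that binds active ezrin in microvilli, stood at 169.7 and 157 CPM in AG and 183 and 280.1 CPM in the GG libraries and was not called (adjusted p = 0.295). The kinase gene SLK stood at 37.0 and 30.3 CPM in AG and 30.01 and 39.4 CPM in the GG libraries. The membrane partner CD44 had 3 reads in AG and 0 in GG.

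Of the apical polarity genes, 18 of 24 were tested, with 1 call higher in GG, 0 calls higher in AG and 17 genes not called by edgeR, with a median of -0.02. The share called by edgeR was 5.56%, below the 12.9% of all genes tested. At an unadjusted p under 0.05, 3 were higher in each group, and DESeq2 called 2 in each direction. The called gene was AMOTL1, an angiomotin family member that binds actin and Hippo pathway proteins, with 3 reads in AG and 90 in GG, a ratio of 20.1 (exact 95% counting interval 6.66 to 99.2). Its call was lost without AG replicate 1 or 2 (adjusted p = 0.0669 and 0.0874). Named after their values were seen, CDC42, the polarity GTPase, stood at 1205 and 1088 CPM in AG and 929 and 822 CPM in the GG libraries. PRKCI, the atypical protein kinase C of the apical domain, stood at 53.9 and 72.7 CPM in AG and 24.7 and 34.3 CPM in the GG libraries, and neither was called.

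Microvillus and brush border genes numbered 18, of which 10 were tested, 3 were called higher in GG, 0 were called higher in AG and 7 were not called by edgeR, with a median of 0.67, also with PROM1 at its lower bound. At an unadjusted p under 0.05 and with DESeq2 the numbers were again 3 and 0. The share called by edgeR was 30%, against 12.9% of all genes tested. MYO1E, a class I myosin that tethers membrane to actin, rose from 5.84 and 4.42 CPM in AG to 36.7 and 47.1 CPM in the GG libraries (adjusted p = 0.0161). PROM1, the protrusion marker prominin 1, had 0 reads in AG and 94 in GG, which makes its level in GG at least 21.0-fold higher against a floor of 3 reads over the group. Its call was lost with the replicate block (adjusted p = 0.0505) and without GG replicate 1 or GG replicate 2 (0.209 and 0.201). MYO1A, the class I myosin of the intestinal brush border (named after its values were seen), had 1.07 and 0.660 CPM in AG and 0.570 and 0.443 CPM in the GG libraries, and USH1C, CDHR2, CDHR5 and MYO7B did not pass the filter.

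**Figure D5:**
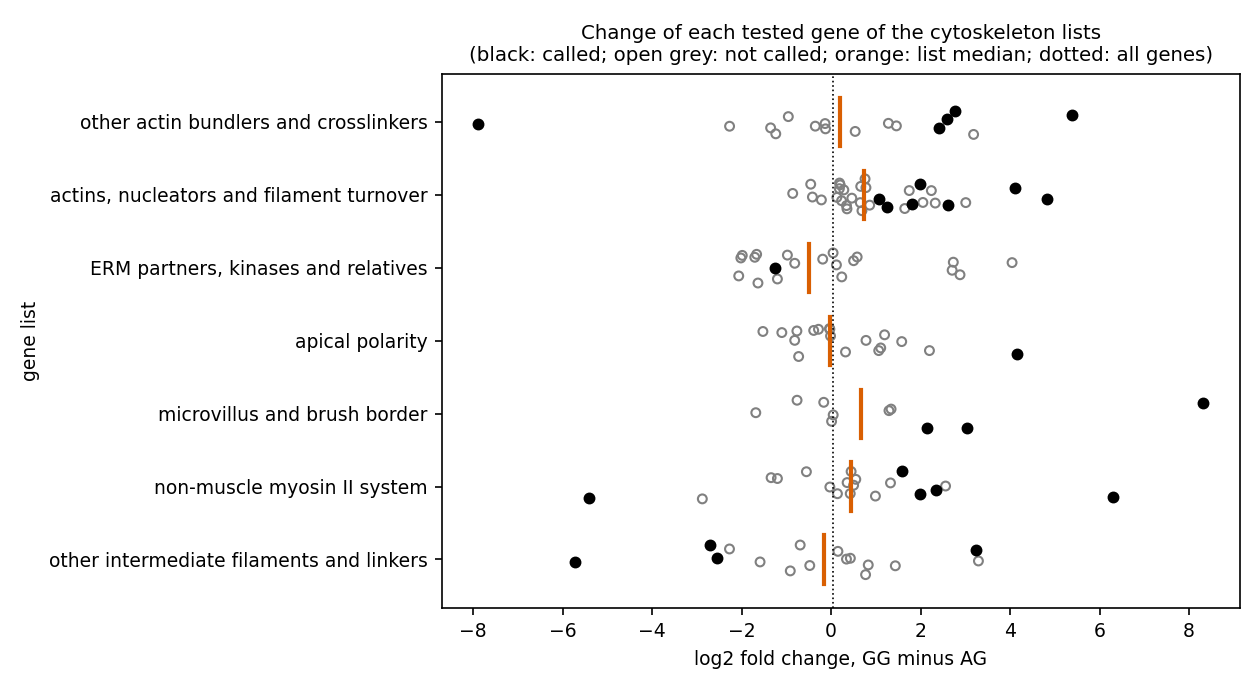
Log2 fold change (GG minus AG) of each tested gene in the 7 cytoskeleton lists, with called genes in black, other genes as open grey circles, the list median in orange and the median of all tested genes as a dotted line; vertical scatter within a list has no meaning. Genes of actin and filament turnover lie mostly to the right, with a median of 0.72, and the ERM partner list has a median of -0.50.

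Neither myosin II heavy chain gene was called. MYH9 (ENSMMUG00000006101), which encodes heavy chain IIA, stood at 17.3 and 19.8 CPM in AG and 19.4 and 29.5 CPM in the GG libraries. Its libraries overlapped between groups, and the log2 fold change of 0.40 ± 0.37 SE was not called (95% interval -0.53 to 1.33, adjusted p = 0.511). MYH10 (ENSMMUG00000023803), which encodes heavy chain IIB, stood at 27.6 and 29.2 CPM in AG and 58.5 and 50.1 CPM in the GG libraries. Both GG libraries were higher than either AG library, but the log2 fold change of 0.93 ± 0.30 SE was not called either (95% interval 0.19 to 1.68, edgeR adjusted p = 0.0955; DESeq2 adjusted p = 0.0495). The ratio of MYH9 to MYH10 was 0.626 and 0.677 in AG and 0.332 and 0.588 in GG.

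The light chain genes MYL6 and MYL12B rose in GG. In the list of 23 myosin II genes, 19 were tested, 4 were called higher in GG, 1 was called higher in AG and 14 were not called, with a median of 0.45. The share called was 26.3%, against 12.9% of all genes tested. MYL6, the essential light chain, rose from 154 and 237 CPM in AG to 1013 and 983 CPM in the GG libraries (log2 fold change 2.35 ± 0.29 SE, adjusted p = 0.0148). MYL12B, a regulatory light chain, rose from 85.7 and 135 to 459 and 418 CPM (1.99 ± 0.30, adjusted p = 0.0214). SEPTIN9, of the septin filaments, had 3 reads in AG and 381 in GG, a ratio of 85.0 (exact 95% counting interval 28.9 to 414), and its AG reads all came from replicate 2. PPP1CB, the catalytic subunit of myosin phosphatase, rose by 1.60 ± 0.33. MYH14, the third non-muscle heavy chain, was named after its values were seen and was called higher in AG on 39 reads there against 1 in GG, a ratio of 58.3 (exact 95% counting interval 9.86 to 2359), and the call was lost without AG replicate 1 or 2 (adjusted p = 0.104 and 0.106). Whether light and heavy chains changed by different amounts was not tested.

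VIM (ENSMMUG00000003193), the intermediate filament gene typical of mesenchymal cells, was lower in both GG libraries but was not called. It stood at 27.4 and 44.4 CPM in AG and 9.26 and 14.9 CPM in the GG libraries, with means of 35.9 ± 12.05 and 12.1 ± 3.96 CPM (SD, n = 2). The groups did not overlap, and the log2 fold change was -1.57 ± 0.44 SE (95% interval -2.66 to -0.49, edgeR adjusted p = 0.0692). The gene passed with DESeq2 (adjusted p = 0.00881), and in edgeR when all genes with a read were kept (0.0359) and with the replicate block (0.0479). It did not pass in edgeR with RLE size factors (0.0658), upper-quartile normalization (0.0653) or a minimum mean of 10 CPM (0.0537). With 1 library left out its log2 fold change ran from -1.98 without GG replicate 2 to -1.19 without AG replicate 2.

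Other intermediate filament and linker genes went both ways. Of 16 tested on a list of 18, 1 was called higher in GG, 3 were called higher in AG and 12 were not called, with a median of -0.16. The share called was 25%, against 12.9% of all genes tested. KRT18, a keratin of simple epithelia, rose from 41.8 and 13.2 CPM in AG to 165 and 352 CPM in the GG libraries (log2 fold change 3.24 ± 0.68 SE, adjusted p = 0.0386). Without AG replicate 1 its log2 fold change was 4.29, without AG replicate 2 it was 2.62 and without GG replicate 2 it was 2.55. The neuronal filament gene INA fell from 41.4 and 24.9 to 3.09 and 6.99 CPM (adjusted p = 0.0372). LMNA, encoding lamin A and C of the nuclear lamina, fell from 48.9 and 54.5 to 4.70 and 13.0 CPM (adjusted p = 0.0410). Without GG replicate 2, INA moved from -2.71 to -3.46 and LMNA from -2.54 to -3.49. Without GG replicate 1, INA was at -2.23 and LMNA at -1.98. PRPH, encoding peripherin, had 82 reads in AG and 2 in GG, a ratio of 61.2 (exact 95% counting interval 16.4 to 514).

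Most markers of other cells that express VIM had few or no reads. Of 12 fibroblast and mesenchyme markers, 10 had a row and 1, PDGFRA, passed the filter, at 116 and 154 CPM in AG and 115 and 93.3 CPM in the GG libraries (log2 fold change -0.38, adjusted p = 0.414). COL3A1 and THY1 had 0 reads in every library. The summed level of the list, most of it PDGFRA, was 116 and 156 CPM in AG and 117 and 95.4 CPM in the GG libraries. Of 11 cumulus and granulosa markers, 8 had a row and 2 were tested. GJA1, the connexin 43 gene, which embryos express as well, rose from 5.70 and 14.5 to 204 and 176 CPM (log2 fold change 4.23, edgeR adjusted p = 0.0151). Its log2 fold change was 5.04 without AG replicate 2 and 3.70 without AG replicate 1. TNFAIP6 was not called, and FSHR had 0 reads in every library. The cumulus and granulosa list summed to 12.9 and 15.03 CPM in AG and 206 and 188 CPM in the GG libraries, where most of it was GJA1. The embryo markers POU5F1 and NANOG were present in all 4 libraries, at 181 to 479 CPM and 25.0 to 151 CPM. Of the 12 embryo markers, 8 were tested, 3 were called higher in GG (TFCP2L1, ESRRB, DPPA2) and 3 higher in AG (ZSCAN4, DPPA4, KLF17). The share called was 75%, against 12.9% of all genes tested. With 1 library left out, DPPA2 ranged from 2.69 to 4.52 (AG replicates 2 and 1) and KLF17 from -5.48 to -3.58 (GG replicates 1 and 2). ZSCAN4, at -9.02, was at -9.77 without GG replicate 1 and at -8.535 without GG replicate 2.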

How the data were processed

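RNA was sequenced from 2 AG and 2 GG macaque morula libraries, and the authors deposited estimated counts of reads per Ensembl gene, not scaled to library size. Per the submitters' processing notes, Trim Galore, STAR 2.6.0c, Salmon 0.12.0 and the build rheMac8 were used, without stated roles. Annotation release and strand setting: not given in the sources used here. Such estimates split reads between similar transcripts, which can blur paralogs. Symbols were matched by Ensembl identifier for 14654 of 21314 genes (68.8%), and chromosomes by symbol from a RefSeq table of another assembly, T2T-MMU8v2.0. Counts were rounded and tested over all genes in R 4.3.3 with edgeR 4.0.16 (glmQLFit and glmQLFTest, filterByExpr, minimum count 10 and total 15, TMM, group alone, Benjamini-Hochberg). Fold changes are GG minus AG, and each SE was derived from the F statistic. CPM refer to TMM-adjusted totals of tested genes. Reads carry no molecular identifiers, so floors (3 reads) and counting intervals cover counting error only. DESeq2 1.42.0 and other settings served as alternatives. Both fits were also run on simulated counts with known changes. That simulation gave all genes the same dispersion in both groups, unlike these data, so it does not measure the error rate of the calls. The members and lists were chosen with earlier results of these data known. Named genes are all members, up to 4 called genes with the smallest p per list (the smallest p where none was called) and markers at 0 in all libraries. Names outside this rule were added with values in view, DPPA2, KLF17, POU5F1, NANOG, TNFAIP6, USH1C, CDHR2, CDHR5 and MYO7B among them. Some genes that the rule would name are not reported here.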

Additional observations from a re-analysis of the deposited data

How the results depend on the processing

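Of the 8 tested genes, EZR and RDX kept their calls and directions with RLE size factors, upper-quartile normalization, DESeq2, no filter on low counts, a minimum mean of 10 CPM, the replicate block, summed identifiers and without either AG library, and lost them without either GG library. The numbers called higher in GG and in AG, 1 and 1, became 2 and 2 with DESeq2, which added MYH10 and VIM, and 2 in AG without a filter and with the replicate block, both adding VIM (adjusted p = 0.0479 with the block). Leaving out 1 library gave 0 to 2 in each direction. PLS3 moved between -1.43 and 0.13, reversed without AG replicate 1. Over all genes, 839 and 870 calls became 1628 and 1711 with DESeq2, 1249 and 1360 without a filter, and 49 to 2007 and 35 to 1779 with 1 library left out. Over the context lists, 25 and 10 calls became 40 and 19, 38 and 17, and 1 to 41 and 1 to 18. With a GG library left out only the AG pair gives a spread, which the lone library was assumed to share. With an AG library left out only the GG pair does. The median absolute log2 ratio of replicate 1 over replicate 2 across all genes tested was 0.523 in AG and 0.322 in GG. The cause of the changed numbers of calls was not tested. Same-numbered libraries deviated together only weakly (r = 0.106 across genes), so the numbers were not taken to pair them. With the replicate block AMOTL1, PROM1 and MYH14 lost their calls (adjusted p = 0.0756, 0.0505 and 0.0743). Paralog shares per kilobase of coding length were not run, since coding lengths were not used here. VIL1 had the fewest reads of the 8 tested genes, 21 to 69 a library.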
